A study of Mus musculus with 77 samples.

Results

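Heat shock and cold-inducible genes were described in mouse liver as a set of 10 genes, listed by name: Hspa1a, Hspa1b, Hspa8, Hsp90aa1, Hsph1, Dnajb1, Hspd1, Hspe1, Cirbp and Rbm3, of 25266 genes in the count files. The livers came from 24 male C57BL/6J mice aged 12 to 24 weeks and kept under 12 h of light and 12 h of darkness, with food freely available. They were taken at ZT5 or ZT12 (5 h or 12 h after lights-on) from Aco1-/- mice, which lack iron regulatory protein 1 (allele Aco1 tm1.1Mwh), from Ireb2-/- mice, which lack iron regulatory protein 2 (allele Ireb2 tm1.2Mwh), and from the Aco1+/+ and Ireb2+/+ control mice of each line, 3 mice for each genotype and time. Both are whole-body knockouts, so the liver is not the only tissue without the protein. Each liver gave 1 library of ribosome-protected fragments (RPF, the footprints of translating ribosomes) and 1 library of total RNA, and the ratio of both in the same liver is the translation efficiency (TE, on a log2 scale). Levels are counts over the coding sequence (CDS) given as CPM, scaled by the upper quartile.

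Heat shock proteins are chaperones that bind unfolded proteins and help them fold, and many of their genes are switched on by heat shock factor 1 (HSF1), which binds repeats of a short motif in their promoters. In the cytosol the HSP70 proteins do this work with HSP40 co-chaperones, which deliver clients, and with HSP110 proteins, which exchange the nucleotide. In the mitochondrial matrix HSP60 and its lid HSP10 form a folding chamber. CIRBP and RBM3 are RNA-binding proteins induced by mild cooling. In the liver of nocturnal rodents, members of both groups are known to cycle over the day with body temperature and feeding, heat shock genes peaking around the onset of activity and Cirbp in the rest phase.

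The targeted genes were lower in footprints in every knockout liver, and the tissue had its defining markers. Aco1 RPF lay between 74.8 and 123.2 CPM in the 6 Aco1-/- livers and at 347.1 CPM or above in the others, and Ireb2 RPF between 32.5 and 41.2 CPM in the 6 Ireb2-/- livers and at 55.8 CPM or above in the others. In RNA, Aco1 was at 114 to 215 CPM in its knockout, so the allele still gave transcript, and Ireb2 overlapped between knockout and the other livers. The 5 hepatocyte markers summed to between 90246 and 147698 CPM in RNA. The depth over coding sequence was 852293 to 3993492 counts for RNA and 2448915 to 13439600 counts for RPF. Of the 8 clock genes used to check the time labels, 6 passed the test in RNA over the 4 genotypes, with Per1, Per3 and Tef higher at ZT12 by 2.36, 1.93 and 0.96 and Arntl and Nr1d1 lower at −1.95 and −1.89 (log2). Of the markers of other cells, none of 5 Kupffer cell, 5 stellate cell and 4 red blood cell genes passed in RNA or RPF, 1 of 5 endothelial genes fell in RNA and 2 in RPF, and 1 of 4 tested cholangiocyte genes fell in RNA and 3 in RPF. The summed RPF of the 5 cholangiocyte genes went from a median of 66.2 CPM (39.8 to 111.04) at ZT5 to 35.9 CPM (24.7 to 68.2) at ZT12, none being at 0 throughout, and the part of these cells in the results below was not tested. Of 5 lymphocyte genes 1 was in the files. In bulk liver, fewer cells of a type and less RNA per cell cannot be told apart.

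Footprints of most heat shock genes of the set were higher at ZT12 than at ZT5, and those of Cirbp were lower. Of the 9 members with enough counts to be tested (Hspa1a was not), 8 passed the test in RPF, against 31.8% of all 10696 genes tested: Hspa1b, Hspa8, Hsph1, Dnajb1, Rbm3 and Hspd1 rose and Cirbp and Hspe1 fell. Of all genes, 13.6% rose and 18.2% fell in RPF. In RNA, 3 of 9 members passed (22.3% of all genes): Hspa8 and Hsph1 rose and Cirbp fell. No member passed in TE (0.486% of all genes), with Hsph1 and Hspe1 at an unadjusted p under 0.05 (9.4% of all genes). The median change of the tested members was 0.22 in RNA, 0.55 in RPF and 0.16 in TE, beside −0.04, −0.04 and 0.01 for all genes (log2). Tests are edgeR's quasi-likelihood test with Benjamini-Hochberg adjustment over all genes, and they measure the spread between these mice.

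**Figure D1:**
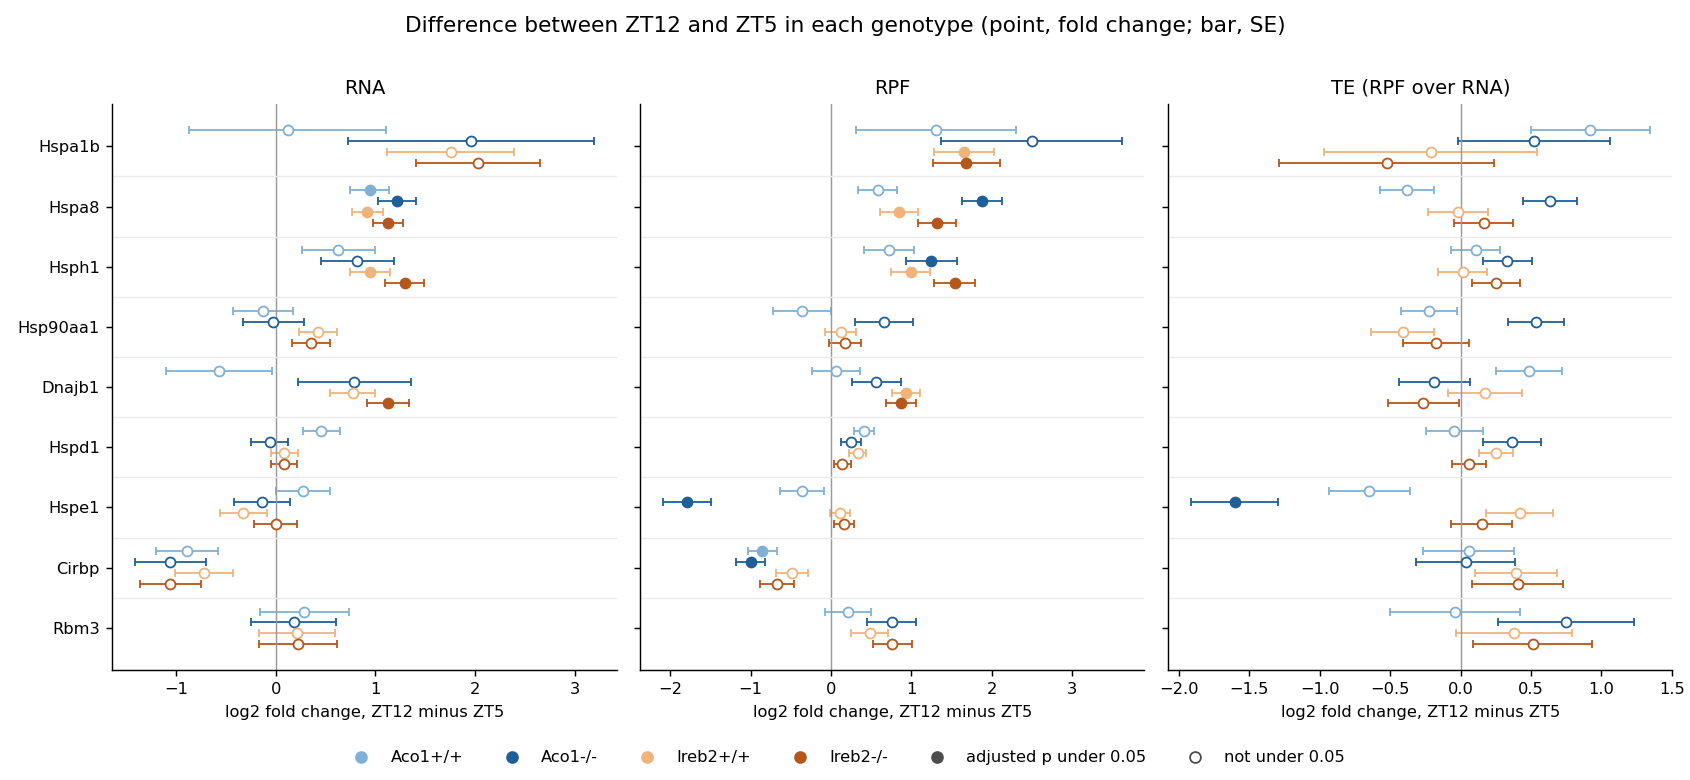
Change from ZT5 to ZT12 of the 9 tested members in RNA, RPF and TE, as log2 fold change (ZT12 minus ZT5) with its standard error, for each of the 4 genotypes. Filled points passed the test at an adjusted p under 0.05. Hspa8 RNA lies between 0.92 and 1.21 in the 4 genotypes, Cirbp lies below 0 in RNA and RPF throughout, and Hspe1 RPF stands at −1.79 in Aco1-/- and between −0.36 and 0.16 in the others.

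Promoter sequence was read for the 7 of 10 members found in the RefSeq promoter table (GRCm38.p6, 250 bases before to 50 bases after each annotated start). Hspa8, Hsp90aa1 and Rbm3 were not found in it. The windows were searched for 3 alternating units of the motif that HSF1 binds, GAANNTTCNNGAA or TTCNNGAANNTTC, and for 2 units, GAANNTTC or TTCNNGAA, where N is any base. The forms are reverse complements of each other or of themselves, so both strands were covered, and a 3-unit match also holds 2-unit matches. A 3-unit match stood in 198 of 32851 promoters (0.603%) and in those of Hspe1, Hspd1 and Hsph1, and a 2-unit match in 15.1% of promoters. Counted by gene, with any of its promoters, a 3-unit match was held by 0.662% of 27025 genes and by 3 of the 7 members, and a 2-unit match by 17% of genes and by 5 of the 7 members. They are shown because these genes are compared below, with the matched letters in capitals:
Hspe1, chr1:55088055-55088080, + strand: tccgTTCTAGAACCTTCCGGAAggcc
Hspd1, chr1:55088055-55088080, − strand: ggccTTCCGGAAGGTTCTAGAAcgga
Hsph1, chr5:149636284-149636304, − strand: cagaTTCTGGAAAGTTCtcct
Hspa1a, chr17:34972249-34972264, − strand: gctgGAAGATTCctgg
Hspa1b, chr17:34959331-34959346, − strand: gctgGAAGATTCctgg
Hspe1 and Hspd1 lie head to head on chromosome 1, so 1 stretch with 2 overlapping 3-unit matches lies in a promoter window of both, at position −89 from the start of Hspe1 and −144 from an annotated start of Hspd1. The Hsph1 match begins 16 bases after an annotated start. Hspa1a and Hspa1b share the same 16 letters, with the match at −104, and 296 of the 300 bases of their windows are identical. A match is a description of these letters and not of binding.

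Hspa8 (chr9:40801276-40805202), the constitutive HSP70 of the cytosol, had higher RNA at ZT12 than at ZT5 in each genotype. In the Aco1 line, Hspa8 RNA was 66.8, 46.9 and 76.7 CPM at ZT5 and 131.3, 106 and 123.2 CPM at ZT12 in Aco1+/+ mice, and 47.1, 78.5 and 64.6 CPM at ZT5 and 190.2, 124.3 and 139 CPM at ZT12 in Aco1-/- mice. In the Ireb2 line, the RNA was 44.7, 37.4 and 35.2 CPM and 70.8, 68.9 and 86.3 CPM in Ireb2+/+ mice, and 43.4, 35.7 and 46.9 CPM and 91.5, 86.0 and 98.9 CPM in Ireb2-/- mice. Every ZT12 liver lay above every ZT5 liver of its genotype in all 4 genotypes, which held for 1.14% of all genes in this direction. The change was 1.05 ± 0.0906 (log2, SE; 2.07-fold) over the 4 genotypes, with an adjusted p of 1.10e-11, and it passed in each genotype alone, at 0.94 in Aco1+/+ (adjusted p = 0.00258), 1.21 in Aco1-/- (0.000166), 0.92 in Ireb2+/+ (0.000795) and 1.12 in Ireb2-/- (3.88e-05). Of all genes, 7.05%, 5.15%, 2.29% and 2.77% passed in RNA in these genotypes, and of the members 1, 1, 2 and 3 of 9. Groups without overlap were common at 3 against 3 mice, being seen for 26.0%, 21.1%, 19.1% and 21.9% of all genes in RNA and for 27.1%, 27.2%, 27.1% and 23.7% in RPF in these genotypes, and for 2, 5, 6 and 6 and for 2, 8, 5 and 6 of 9 members.

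Footprints on Hspa8 rose as well, with the largest value in Aco1-/- livers, though the time effect was not shown to differ among the genotypes (adjusted p = 0.214). In the Aco1 line, Hspa8 RPF was 37.6, 45.3 and 58.7 CPM at ZT5 and 67.8, 55.1 and 85.5 CPM at ZT12 in Aco1+/+ mice, and 28.3, 57.3 and 33.1 CPM and 169.5, 138 and 121.6 CPM in Aco1-/- mice. In the Ireb2 line, it was 20.9, 22.8 and 41.5 CPM and 51.6, 43.0 and 58.2 CPM in Ireb2+/+ mice, and 23.6, 26.8 and 29.9 CPM and 62.7, 56.9 and 80.7 CPM in Ireb2-/- mice. The times overlapped in Aco1+/+ livers alone, and the 3 Aco1-/- livers at ZT12 were the highest of all 24. The change was 1.16 ± 0.134 over the 4 genotypes (2.23-fold, adjusted p = 1.34e-06). By genotype, Hspa8 RPF changed by 0.58 ± 0.245 in Aco1+/+ (adjusted p = 0.186) and rose by 1.88 ± 0.250 in Aco1-/- (0.000275), 0.85 ± 0.235 in Ireb2+/+ (0.0463) and 1.32 ± 0.241 in Ireb2-/- (0.00731). The call in Ireb2+/+ was lost when any of 9 of the 12 mice of the line was left out (adjusted p between 0.0531 and 0.156), with no filter on low counts (0.0595) and with all 24 mice in one fit (0.0632). Of all genes, 6.64%, 12.1%, 7.53% and 5.73% passed in RPF in the 4 genotypes, and of the members 1, 4, 4 and 4 of 9.

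**Figure D2:**
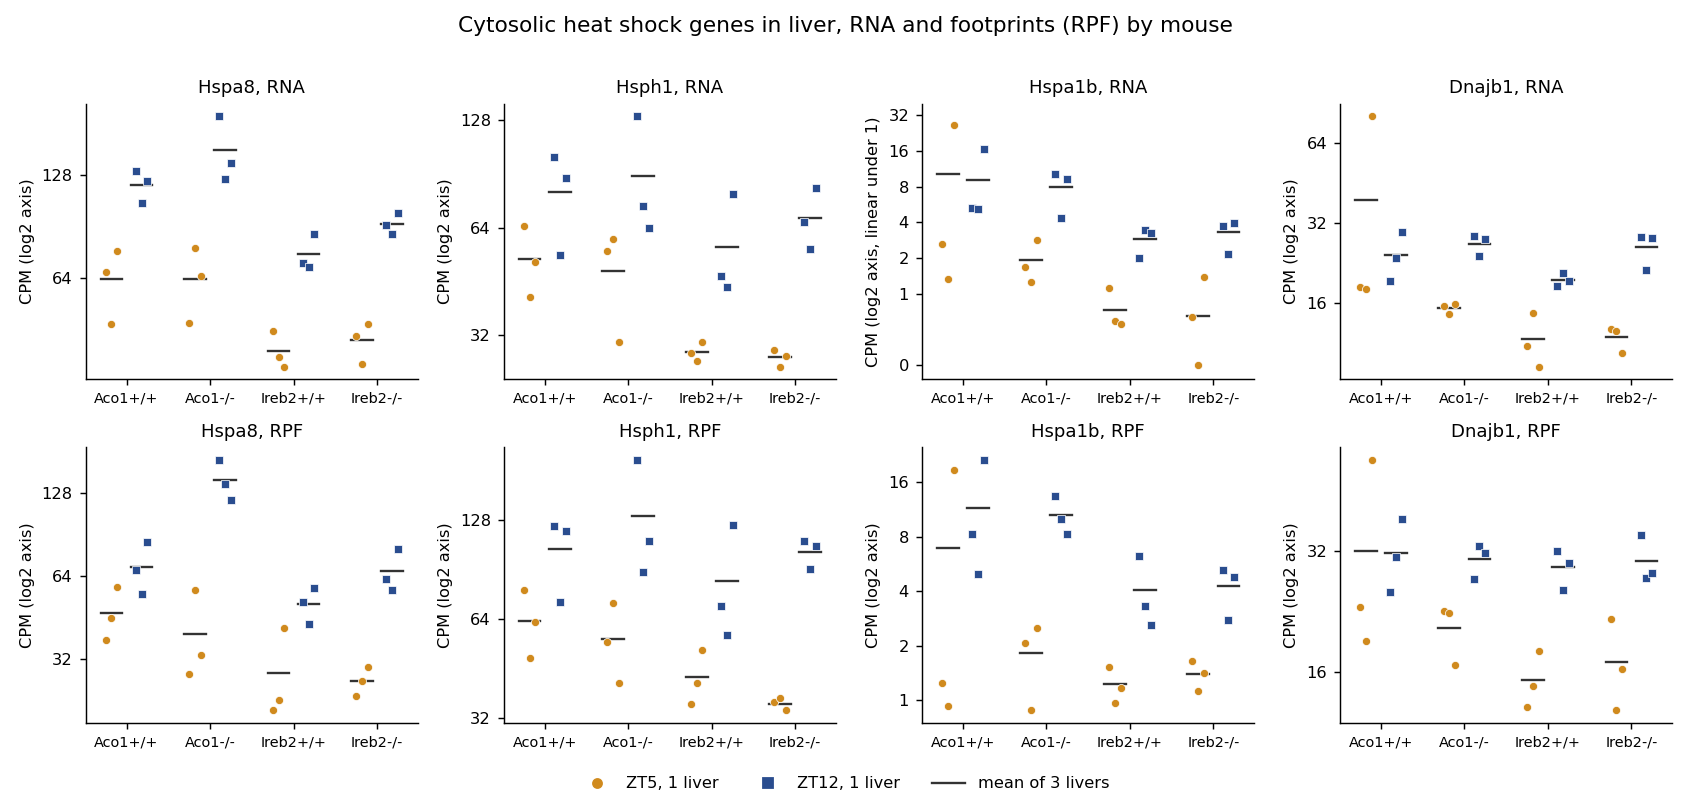
CPM of Hspa8, Hsph1, Hspa1b and Dnajb1 in RNA (top) and RPF (bottom) on log2 axes (linear under 1 for Hspa1b RNA), by genotype. Each point is 1 liver, circles at ZT5 and squares at ZT12, and the line is the mean of 3 livers. The ZT12 squares of Hspa8 RNA lie above the ZT5 circles in all 4 genotypes, and 1 Aco1+/+ liver at ZT5 stands high for Hspa1b (26.6 CPM) and Dnajb1 (80.5 CPM) in RNA.

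Hspa8 RNA had higher medians at ZT12 in the 3 columns of the count files that cover the transcript, and a lower median in a further column whose meaning is not given in the sources used here. That column held 41737 of the 56022 Hspa8 RNA counts (74.5%, against 11.7% over all genes), and its median over 12 livers was 705 CPM (506 to 1601) at ZT5 and 474 CPM (353 to 677) at ZT12. Over all genes, the column held 9.05% to 22.9% of the RNA counts of a library at ZT5 and 7.76% to 12.9% at ZT12. Over the same livers the CDS column had a median of 46.9 CPM (35.2 to 78.5) at ZT5 and 102 CPM (68.9 to 190.2) at ZT12, the 5′ UTR column 68.2 and 104 CPM, and the 3′ UTR column 36.0 and 59.9 CPM. With the 3′ UTR column in place of the CDS column, Hspa8 RNA still rose, by 0.63 (adjusted p = 2.85e-05). With all columns summed the change turned to −0.23 (adjusted p = 0.0895) over the 4 genotypes and lay between −0.42 and −0.15 in each, with none passing, while RPF rose by 1.19 (1.21e-06) and TE by 1.43 (0.000343). Hspa8 has processed pseudogenes, and how reads that fit several places were counted is not given in the sources used here.

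**Figure D3:**
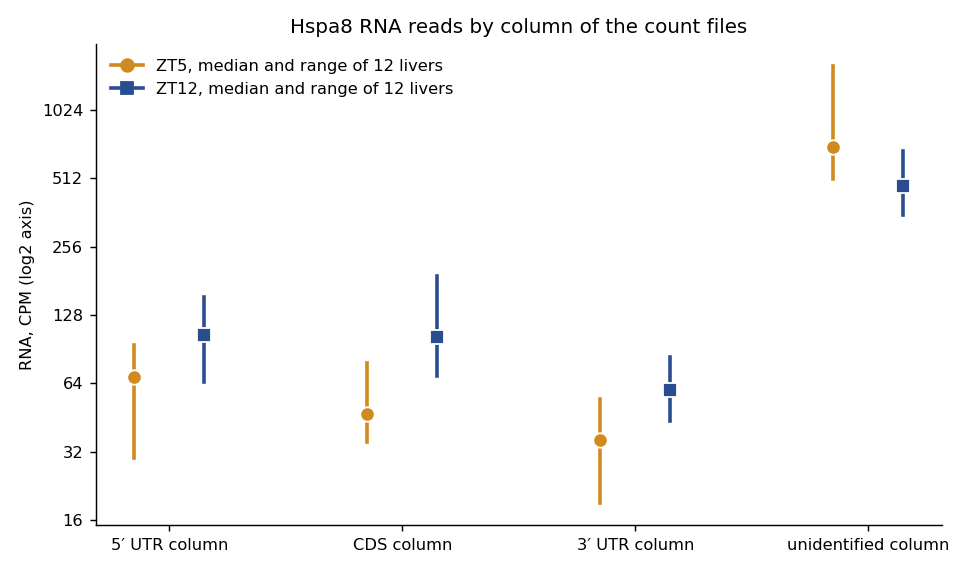
Hspa8 RNA in each column of the count files, as CPM on a log2 axis, at ZT5 and ZT12. Points are the median and bars the range of 12 livers. The 5′ UTR, CDS and 3′ UTR columns have higher medians at ZT12, and the unidentified column a lower one (705 CPM at ZT5 and 474 CPM at ZT12).

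Hsph1, the HSP110 protein that serves as nucleotide exchange factor of HSP70, rose with Hspa8. In the Aco1 line, Hsph1 RNA was 64.6, 40.8 and 51.3 CPM at ZT5 and 101, 53.6 and 88.0 CPM at ZT12 in Aco1+/+ mice, and 55.0, 59.3 and 30.5 CPM and 131.2, 73.6 and 63.7 CPM in Aco1-/- mice. In the Ireb2 line, it was 28.4, 27.0 and 30.6 CPM and 46.7, 43.7 and 79.3 CPM in Ireb2+/+ mice, and 28.9, 26.1 and 28.0 CPM and 66.5, 55.5 and 82.6 CPM in Ireb2-/- mice. The times did not overlap in 3 of the genotypes and overlapped in Aco1+/+. The change in RNA was 0.92 ± 0.158 over the 4 genotypes (1.90-fold, adjusted p = 0.000248), and alone it passed in Ireb2+/+ (0.94, adjusted p = 0.00854) and Ireb2-/- (1.29, 0.000177), with 0.63 in Aco1+/+ (0.401) and 0.82 in Aco1-/- (0.269). Without the Ireb2+/+ mouse 3 at ZT12, the highest of its group, the Ireb2+/+ value was 0.65 (adjusted p = 0.0701), and the call was also lost with all columns summed (0.0579) and with all 24 mice in one fit (0.173).

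Hsph1 RPF was 78.4, 48.8 and 62.8 CPM at ZT5 and 122.7, 72.2 and 119 CPM at ZT12 in Aco1+/+ mice, and 54.5, 71.4 and 40.9 CPM and 196, 88.9 and 110.7 CPM in Aco1-/- mice. It was 35.2, 40.8 and 51.4 CPM at ZT5 in Ireb2+/+ mice, and at ZT12 it was 70.1 and 57.3 CPM in mice 1 and 2 and higher in mouse 3, with a mean of 83.8 ± 35.4 CPM (SD, n = 3). It was 35.6, 36.6 and 33.8 CPM and 110.4, 90.9 and 107.04 CPM in Ireb2-/- mice. Here too the times overlapped in Aco1+/+ alone. Hsph1 RPF rose by 1.13 ± 0.157 over the 4 genotypes (2.18-fold, adjusted p = 2.13e-05). By genotype the change was 0.72 in Aco1+/+ (0.213), 1.25 in Aco1-/- (0.0238), 0.99 in Ireb2+/+ (0.0333) and 1.54 in Ireb2-/- (0.00552). The Aco1-/- call was lost without mouse 1 at ZT12 or mouse 1 or 3 at ZT5 (adjusted p between 0.0608 and 0.117), and the Ireb2+/+ call without any of 5 mice of the line (0.0501 to 0.119), with all columns summed (0.0636) and with all 24 mice in one fit (0.0671).

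Hspa1b, a stress-inducible HSP70, was scarce at ZT5 and rose in footprints. Its RPF was 1.25, 0.928 and 18.6 CPM at ZT5 and 8.27, 5.00 and 21.3 CPM at ZT12 in Aco1+/+ mice, and 2.07, 0.885 and 2.5 CPM and 13.5, 10.1 and 8.31 CPM in Aco1-/- mice. In Ireb2+/+ mice it was 1.54, 0.973 and 1.17 CPM and 6.24, 3.33 and 2.60 CPM, and in Ireb2-/- mice 1.65, 1.13 and 1.42 CPM and 5.27, 2.78 and 4.83 CPM. All 12 ZT12 livers lay above 11 of the 12 ZT5 livers, and the Aco1+/+ mouse 3 at ZT5 lay above all ZT12 livers but 1. Over the 4 genotypes, Hspa1b RPF rose by 1.79 ± 0.447 (3.46-fold, adjusted p = 0.00538), and alone it passed in Ireb2+/+ (1.66, adjusted p = 0.00922) and Ireb2-/- (1.69, 0.0189) and not in Aco1+/+ (1.31, 0.519) or Aco1-/- (2.5, 0.189). The Ireb2+/+ call was lost without mouse 1 at ZT12 (0.0771) or mouse 2 at ZT5 (0.0532), the Ireb2-/- call without mouse 1 or 3 at ZT12 or mouse 2 at ZT5 (0.0663 to 0.132), both calls with all 24 mice in one fit (0.359 and 0.433), and the call over all genotypes when the 6 Aco1-/- mice were left out (1.57, adjusted p = 0.0756).

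In RNA, Hspa1b counts were low, between 0 and 53 in a library. Hspa1b RNA was 2.64, 1.33 and 26.6 CPM at ZT5 and 5.24, 5.21 and 16.7 CPM at ZT12 in Aco1+/+ mice, and 1.68, 1.25 and 2.82 CPM and 10.2, 4.33 and 9.26 CPM in Aco1-/- mice. In the Ireb2 line it was 1.10, 0.614 and 0.577 CPM and 2.01, 3.43 and 3.22 CPM in Ireb2+/+ mice, and 0.672, 0 and 1.37 CPM and 3.74, 2.18 and 3.93 CPM in Ireb2-/- mice. The times were apart in all genotypes but Aco1+/+. The change over the 4 genotypes was 1.46 ± 0.551 and missed the threshold (adjusted p = 0.0671). Without the Aco1+/+ mouse 3 at ZT5 it was 2.00 (7.62e-06), and over the 3′ UTR column, with 704 counts against 278 in the CDS, it was 1.5 (0.0316).

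Hspa1a, the neighbouring inducible HSP70 gene, had 17 RNA counts in all (7 at ZT5 and 10 at ZT12, 0 to 4 in a library) and 43 RPF counts (11 and 32, 0 to 14 in a library), and did not pass the filter on low counts. The protein-coding parts of Hspa1a and Hspa1b are near-identical, so the split of reads between them is uncertain. With both genes summed, RPF rose by 1.74 (adjusted p = 0.00617) and RNA changed by 1.42 (0.0749).

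Dnajb1, the HSP40 that delivers clients to HSP70, rose in footprints in the Ireb2 line. Its RPF was 13.1, 14.8 and 18.1 CPM at ZT5 and 32.2, 25.6 and 30.01 CPM at ZT12 in Ireb2+/+ mice, and 21.7, 12.9 and 16.3 CPM and 35.1, 27.5 and 28.3 CPM in Ireb2-/- mice. In the Aco1 line it was 23.3, 19.1 and 54.1 CPM and 25.3, 31.1 and 38.7 CPM in Aco1+/+ mice, and 22.8, 22.4 and 16.7 CPM and 27.3, 33.1 and 31.8 CPM in Aco1-/- mice. The times overlapped in Aco1+/+ alone, where mouse 3 at ZT5 had the highest value of all 24. Dnajb1 RPF rose by 0.61 ± 0.136 over the 4 genotypes (adjusted p = 0.00153), by 0.94 in Ireb2+/+ (0.00202) and by 0.87 in Ireb2-/- (0.00692), and changed by 0.07 in Aco1+/+ (0.933) and 0.56 in Aco1-/- (0.250). Without the Ireb2-/- mouse 2 at ZT5, the Ireb2-/- value was 0.68 (0.0748). Dnajb1 RNA rose in Ireb2-/- mice, from 12.8, 12.6 and 10.4 CPM to 28.3, 21.2 and 28.2 CPM (1.13, adjusted p = 0.00238), a call lost with all 24 mice in one fit (0.231), as was that in Ireb2-/- RPF (0.0832). Dnajb1 RNA changed by 0.53 ± 0.212 over the 4 genotypes (0.0833), and by 0.77 (4.40e-07) without the Aco1+/+ mouse 3 at ZT5.

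That mouse stood apart from the other 11 at ZT5 in Hspa1b and Dnajb1. Its Hspa1b RNA was 26.6 CPM against 0 to 2.82 CPM, and its Dnajb1 RNA was 80.5 CPM against 9.23 to 18.5 CPM. In RPF the values were 18.6 CPM against 0.885 to 2.5 CPM for Hspa1b, and 54.1 CPM against 12.9 to 23.3 CPM for Dnajb1. The same liver had the highest RNA of the immediate early genes Fos (34.2 CPM, next 1.32), Egr1 (91.3 CPM, next 12.7), Jun (43.1 CPM, next 19.6) and Junb (106 CPM, next 53.0), transcription factor genes that respond to stimuli within minutes. Ier2 RNA was also highest in it (21.5 CPM, next 13.3). The RNA of Dusp1, Btg2 and Ier3 was highest in other livers, at 76.2, 5.04 and 0.655 CPM against 72.2, 4.44 and 0.634 CPM in this liver. Atf3 was at 0 CPM in this liver in RNA and RPF. The 9 immediate early genes found summed to 374 CPM in it, at the top of a ZT5 range that began at 43.7 CPM with a median of 64.3 CPM, beside 53.7 to 136 CPM at ZT12. Of 6 immediate early genes tested over the 4 genotypes, Dusp1 rose in RNA by 1.38 and Junb fell, at −1.31. The Junb call was lost without the Ireb2+/+ mouse 1 at ZT5 (−1.13, adjusted p = 0.0572) and without the Aco1-/- mice (−1.55, 0.0532), and without the Aco1+/+ mouse 3 at ZT5 the value was −0.93 and passed. The RPF library of the Aco1+/+ mouse 3 at ZT5 was the least deep (2448915 counts), and the part of these features in the results was not tested. In this liver Hspa8 was at 76.7 CPM in RNA, within the other ZT5 livers, and at 58.7 CPM in RPF, just above their highest value of 57.3 CPM. Its Hsph1 was within the other ZT5 livers in both, at 51.3 and 62.8 CPM. Without this liver, 5 of 9 members passed in RNA over the 4 genotypes in place of 3.

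Hsp90aa1, the inducible cytosolic HSP90, was not shown to change. Its RNA ranged from 15.5 to 44.4 CPM at ZT5 (median 22.1) and from 21.8 to 46.8 CPM at ZT12 (median 25.9), and its RPF from 20.6 to 44.1 CPM (26.1) and from 20.0 to 75.0 CPM (29.7). The times overlapped over all livers and in the Aco1 line, while in both Ireb2-line genotypes every ZT12 liver lay above every ZT5 liver in RNA. The change over the 4 genotypes was 0.16 in RNA (unadjusted 95% interval −0.09 to 0.41, adjusted p = 0.395) and 0.15 in RPF (−0.19 to 0.49, 0.529). The highest liver was the Aco1-/- mouse 1 at ZT12, which was also the highest of all 24 for Hspa8 and Hsph1 in both RNA and RPF. The RNA library of this mouse was the least deep of the 24 (852293 counts over coding sequence), and the part of depth was not tested.

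Hspd1, which encodes the HSP60 subunit of the mitochondrial folding chamber (chr1:55077833-55088243), had slightly more footprints at ZT12. Its RPF was 157, 164 and 172 CPM at ZT5 and 219, 221 and 214 CPM at ZT12 in Aco1+/+ mice, and 158, 196 and 186 CPM and 221, 211 and 209.7 CPM in Aco1-/- mice. In Ireb2+/+ mice it was 164, 163 and 180.0 CPM and 219, 209.9 and 209.8 CPM, and in Ireb2-/- mice 168, 195 and 203 CPM and 223, 205 and 196 CPM. The times were apart in 3 genotypes and overlapped in Ireb2-/-. Hspd1 RPF rose by 0.28 ± 0.0536 over the 4 genotypes (1.22-fold, adjusted p = 0.000183), and no genotype passed alone, with values between 0.14 and 0.41. Hspd1 RNA ranged from 112.2 to 159 CPM at ZT5 and from 84.7 to 186 CPM at ZT12 and changed by 0.14 ± 0.0814 (0.221). Without the Aco1-/- mouse 3 at ZT12, the RNA value was 0.21 (0.0175). It was 0.23 (0.0184) with all columns summed and 0.21 (0.0467) without the Aco1-/- mice.

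Hspe1 (chr1:55088148-55091317), which encodes the HSP10 lid of the same chamber, fell in footprints in Aco1-/- livers. Its RPF was 95.8, 77.3 and 48.9 CPM at ZT5 and 15.3, 16.8 and 32.9 CPM at ZT12 in Aco1-/- mice, and 88.1, 99.7 and 60.5 CPM and 65.6, 63.7 and 66.3 CPM in Aco1+/+ mice. In the Ireb2 line it was 62.8, 67.0 and 62.2 CPM and 63.9, 73.2 and 70.6 CPM in Ireb2+/+ mice, and 56.2, 68.3 and 78.9 CPM and 75.6, 71.1 and 81.6 CPM in Ireb2-/- mice. The 3 Aco1-/- livers at ZT12 were the lowest of all 24, with 117, 97 and 182 counts, and in the other genotypes the times overlapped. The change in Aco1-/- was −1.79 ± 0.294 (adjusted p = 0.00191), and in the other genotypes it was −0.36 (0.510), 0.11 (0.651) and 0.16 (0.495). The fall over the 4 genotypes (−0.47 ± 0.116, adjusted p = 0.00344) rested on the Aco1-/- mice: without them it was −0.03 (0.857).

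No change of Hspe1 RNA passed the test. Hspe1 RNA in Aco1-/- mice was 26.5, 21.1 and 12.7 CPM at ZT5 and 24.4, 18.5 and 14.4 CPM at ZT12. Over all livers it ranged from 12.0 to 26.6 CPM (median 20.1) at ZT5 and from 12.0 to 32.2 CPM (19.7) at ZT12, and it changed by −0.05 ± 0.13 over the 4 genotypes (0.844). The TE of Hspe1 in Aco1-/- mice was 1.85, 1.87 and 1.94 at ZT5 and −0.67, −0.13 and 1.18 at ZT12 (log2). The times did not overlap, and the change in TE was −1.60 ± 0.308 (adjusted p = 0.0166), with 0.15% of all genes passing. It was the only member to pass in TE in any genotype (0.0187%, 0.533% and 0.00935% of all genes in Aco1+/+, Ireb2+/+ and Ireb2-/-), and at an unadjusted p under 0.05 there were 3, 3, 1 and 0 members in Aco1+/+, Aco1-/-, Ireb2+/+ and Ireb2-/-, beside 7.49%, 8.05%, 8.22% and 4.52% of all genes. The call was lost in 6 of 12 omissions of a mouse of the line (adjusted p between 0.0511 and 0.151), with the first run alone (0.0800) and with RPF and RNA not paired by mouse (0.774).

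The time effect of Hspe1 in RPF differed among the 4 genotypes, in a test of the difference itself (adjusted p = 0.0183, with 0.963% of all genes passing). It was the only one of 9 members to do so. That test spans both lines, and genotype by time within the Aco1 line alone did not pass (−1.43, adjusted p = 0.837). The call was lost without the Aco1-/- mouse 1 (0.0516) or mouse 2 at ZT12 (0.0617) or the Aco1-/- mouse 1 at ZT5 (0.0739). The same test gave an adjusted p of 0.0901 for Hspe1 in TE, where no member passed (0.0935% of all genes, with 3 members and 7.34% of all genes at an unadjusted p under 0.05), and no member passed in RNA (0.0% of all genes, with 1 member and 6.76% of all genes at an unadjusted p under 0.05). The RPF libraries of the Aco1-/- mice 1 and 2 at ZT12 also had the largest share of counts in the CDS column (96.1% and 96.0%) among the RPF libraries, and its part in the result was not tested. Hspe1 and Hspd1 overlap at their starts on opposite strands and have processed pseudogenes, and the strand setting of the counting is not given in the sources used here.

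**Figure D4:**
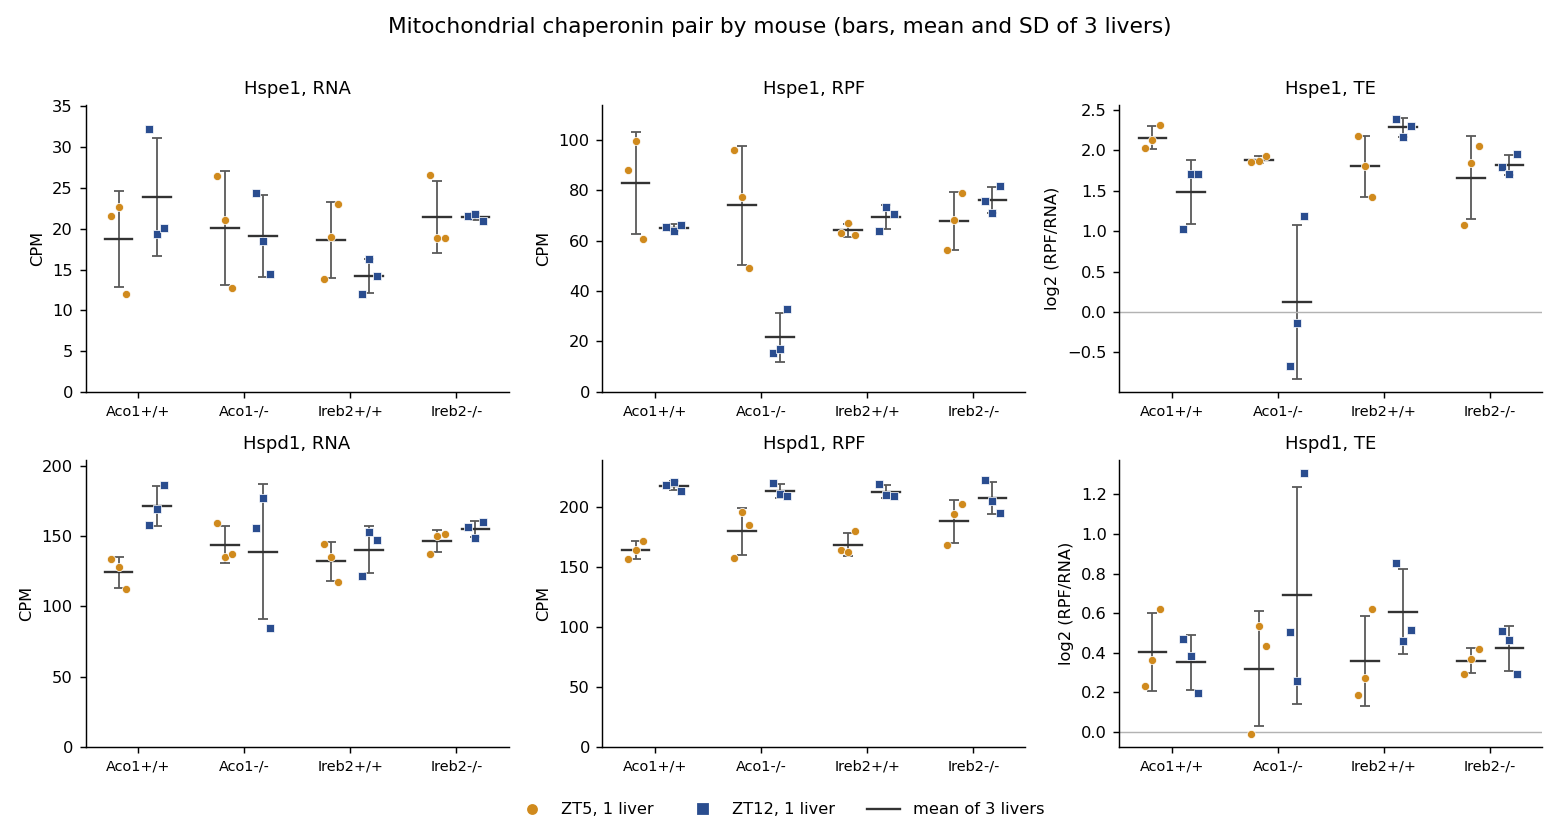
Hspe1 (top) and Hspd1 (bottom) by genotype and time, as RNA CPM, RPF CPM and log2 TE. Points are single livers, circles at ZT5 and squares at ZT12, with the mean and SD of 3 livers. The Aco1-/- livers at ZT12 have between 15.3 and 32.9 CPM of Hspe1 RPF, below all others, while Hspd1 RPF in them lies between 209.7 and 221 CPM.

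Cirbp, the cold-inducible RNA-binding protein, had less RNA and fewer footprints at ZT12. In the Aco1 line, Cirbp RNA was 13.6, 11.7 and 6.34 CPM at ZT5 and 6.44, 5.43 and 5.97 CPM at ZT12 in Aco1+/+ mice, and 9.66, 6.47 and 9.59 CPM and 6.10, 4.33 and 2.99 CPM in Aco1-/- mice. In the Ireb2 line it was 13.5, 10.4 and 9.81 CPM and 4.52, 9.15 and 5.80 CPM in Ireb2+/+ mice, and 14.8, 10.5 and 9.60 CPM and 5.40, 4.90 and 6.55 CPM in Ireb2-/- mice. The times were apart in all genotypes but Aco1+/+, where the lowest ZT5 liver (6.34 CPM) lay just under the highest ZT12 liver (6.44 CPM). Over the 4 genotypes, Cirbp RNA fell, with a change of −0.93 ± 0.159 (0.525-fold, adjusted p = 2.18e-05). No genotype passed alone in RNA, where libraries held between 6 and 49 Cirbp counts (−0.89, −1.05, −0.72 and −1.05, adjusted p between 0.0670 and 0.220). The 3′ UTR column gave −0.82 (7.55e-05).

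Cirbp RPF was 26.3, 30.6 and 29.1 CPM at ZT5 and 13.1, 18.0 and 16.4 CPM at ZT12 in Aco1+/+ mice, and 22.5, 23.3 and 30.3 CPM and 12.8, 10.9 and 14.1 CPM in Aco1-/- mice. It was 26.0, 28.0 and 21.9 CPM and 17.0, 25.6 and 13.2 CPM in Ireb2+/+ mice, and 30.4, 27.4 and 23.6 CPM and 18.7, 19.2 and 13.4 CPM in Ireb2-/- mice. The times overlapped in Ireb2+/+ alone. Cirbp RPF fell over the 4 genotypes (−0.75 ± 0.0994, 0.594-fold, adjusted p = 1.36e-06), in Aco1+/+ (−0.85, 0.00613) and in Aco1-/- (−1.0, 0.00195), and changed by −0.49 in Ireb2+/+ (0.162) and −0.68 in Ireb2-/- (0.0732). With the first sequencing run alone the Aco1-/- value was −0.76 (0.0633).

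Rbm3, the other cold-inducible RNA-binding protein, rose in footprints, the direction opposite to Cirbp. Its RPF was 7.90, 6.13 and 5.46 CPM at ZT5 and 6.08, 7.70 and 9.48 CPM at ZT12 in Aco1+/+ mice, and 5.11, 2.07 and 6.67 CPM and 7.71, 9.19 and 7.05 CPM in Aco1-/- mice. In Ireb2+/+ mice it was 3.77, 7.70 and 6.38 CPM and 8.16, 7.68 and 9.24 CPM, and in Ireb2-/- mice 7.13, 6.22 and 7.32 CPM and 13.2, 9.28 and 12.1 CPM. The times were apart in both knockouts and overlapped in both controls. Over the 4 genotypes, Rbm3 RPF rose by 0.55 ± 0.135 (1.47-fold, adjusted p = 0.00240), and no genotype passed alone. Rbm3 RNA had 1 to 26 counts in a library, ranged from 2.93 to 5.77 CPM at ZT5 and from 1.02 to 7.5 CPM at ZT12, and changed by 0.22 ± 0.208 (0.483). Of its RNA counts, 9.58% lay in the CDS column and 68.4% in the 3′ UTR column, which gave 0.37 (0.0103).

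**Figure D5:**
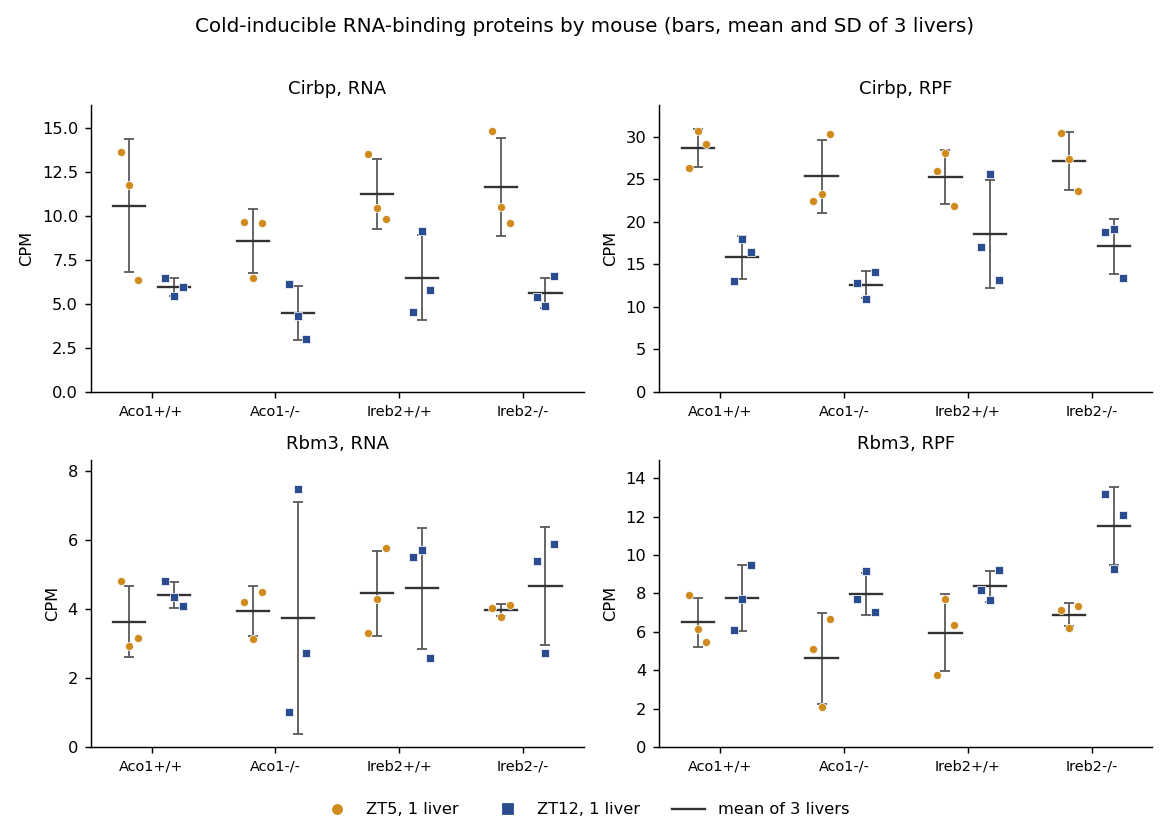
Cirbp and Rbm3 by genotype and time, as RNA CPM and RPF CPM. Points are single livers, circles at ZT5 and squares at ZT12, with the mean and SD of 3 livers. The means of Cirbp lie lower at ZT12 in RNA and RPF, and Rbm3 RPF lies higher at ZT12 in the means of all 4 genotypes.

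The question of whether loss of either iron regulatory protein altered these genes was asked by comparing each knockout with the controls of its line at the same time. These comparisons share the knockout or control mice with the time comparisons above. Of 9 members, 1 passed in 1 of the 12 comparisons: Hspe1 RPF in the Aco1 line at ZT12, lower in the knockout by −1.60 ± 0.291 (adjusted p = 0.0432, with 0.299% of all genes passing). The 3 knockout livers lay between 15.3 and 32.9 CPM and the 3 controls between 63.7 and 66.3 CPM. This call was lost in 8 of 12 omissions of a mouse (adjusted p between 0.0604 and 0.181) and with all count columns summed (−1.51, 0.0673). Hspa8 RPF at ZT12 was apart in the other direction, at 121.6 to 169.5 CPM in Aco1-/- and 55.1 to 85.5 CPM in Aco1+/+ (9.83% of all genes were higher without overlap), and the difference of 1.04 ± 0.237 missed the threshold (adjusted p = 0.0793), as did that in TE (0.74 ± 0.177, 0.109). For the Aco1 knockout at ZT12, no member passed in RNA (0.00935% of all genes, 0 members at an unadjusted p under 0.05) or TE (0.0935%, with Hspa8, Hsp90aa1 and Hspe1 and 6.71% of all genes at an unadjusted p under 0.05). Without the Aco1-/- mouse 3 at ZT12, whose Hspe1 RPF was the highest of its group, 2 members passed in RPF and 2 in TE.

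At ZT5, no member passed in the Aco1 line in RNA, RPF or TE (0.0%, 0.00935% and 0.00935% of all genes), with Dnajb1 at an unadjusted p under 0.05 in TE (2.54% of all genes) and 0 members in RNA and RPF. None passed in the Ireb2 line at ZT12 (0.0187%, 0.028% and 0.0%), with Hspe1 at an unadjusted p under 0.05 in RNA (4.21%) and 0 members in RPF and TE. At ZT5 in the Ireb2 line none passed (0.00935%, 0.0654% and 0.00935%), with 0 members at an unadjusted p under 0.05. For Hspa8, the unadjusted 95% interval of knockout minus control at ZT12 was −0.07 to 0.70 in RNA and 0.54 to 1.55 in RPF in the Aco1 line, and −0.0029 to 0.60 and −0.12 to 0.89 in the Ireb2 line (log2). For Cirbp and Hsph1 no genotype comparison passed either. The interaction of genotype and time passed for no member in either line (Aco1 line 0.0%, 0.0% and 0.028% of all genes in RNA, RPF and TE; Ireb2 line 0.0% in each). At an unadjusted p under 0.05 there were 2 members in RPF in the Aco1 line (5.52% of all genes; Hspa8 1.29, adjusted p = 0.611, and Hspe1 −1.43, 0.837) and 3 in TE (4.75% of all genes; Hspa8 1.02, 0.319; Hsp90aa1 0.76, 0.965; Hspe1 −0.96, 0.993), and none in the Ireb2 line. Without the Aco1-/- mouse 3 at ZT12, 1 member passed in RPF and 1 in TE in the Aco1 line.

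Between lines, Hspa8 RNA was higher in the 6 Aco1-line livers than in the 6 Ireb2-line livers at both times, 46.9 to 78.5 CPM against 35.2 to 46.9 CPM at ZT5, where the nearest livers nearly touched, and 106 to 190.2 CPM against 68.9 to 98.9 CPM at ZT12. Hsp90aa1 RNA was apart at ZT5 (22.3 to 44.4 against 15.5 to 21.8 CPM) and Hspa1b RNA at ZT12 (4.33 to 16.7 against 2.01 to 3.93 CPM). Higher values without overlap in the Aco1 line were seen for 0.907% of all genes at ZT5 and for 0.57% at ZT12. In RPF no member was apart (1.49% and 0.58% of all genes higher). Line and the handling of its mice cannot be told apart.

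The members spanned a wide range of translation efficiency. Averaged over the 24 livers, log2 TE was 1.65 for Hspe1 (percentile 98.5 of all genes tested), 1.43 for Cirbp (97.1) and 0.82 for Rbm3 (84.4). It lay between 0.33 and 0.44 for Hspd1, Hsph1, Hspa1b and Dnajb1, was 0.14 for Hsp90aa1 (51.1) and −0.53 for Hspa8 (25.7). These levels use the CDS column, which held 9.42% of the RNA counts of Hspa8 and 9.58% of those of Rbm3, and the order was not computed for the other columns. The SD over livers ran from 0.201 for Hsph1 to 0.890 for Hspa1b, and differences between members in this order were not tested. Hspa8 also had many footprints in its 5′ UTR column, 21.0% of its RPF counts in all columns, against 2.10% over all genes. Of its RPF counts in the 5′ UTR and CDS columns, a median of 19.3% (7.80% to 31.7%) lay in the 5′ UTR column at ZT5. At ZT12 this share was 21.2% (14.0% to 37.8%), with the times overlapping.

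Genes of related roles were described by lists. Of 42 tested genes of the chaperone network outside the mitochondria, most of them cytosolic, 5 rose and 1 fell in RNA, 13 rose and 3 fell in RPF and 1 rose in TE over the 4 genotypes, with medians of −0.01, 0.01 and 0.03, beside −0.04, −0.04 and 0.01 for all genes, of which 22.3%, 31.8% and 0.486% passed. Hspa2, a further HSP70, rose by 1.37 in RNA (8.86e-06) and 1.53 in RPF (1.82e-08), Dnaja1, an HSP40, by 0.86 and 0.84, and Tcp1, a subunit of the cytosolic chaperonin, by 0.31 and 0.43. The Tcp1 RNA value was 0.04 (0.719) with all columns summed and 0.17 (0.499) with the 3′ UTR column. Dnajb2, an HSP40, fell in RNA (−0.43, 0.00386), with −0.17 (0.287) for the 3′ UTR column. Bag1, a nucleotide exchange factor of HSP70 (−0.44), Serpinh1, the collagen chaperone of the endoplasmic reticulum (−0.60), and Hspb1, a small heat shock protein (−0.50, 0.0300), fell in RPF, and the Hspb1 call was lost in 6 of 24 omissions of a mouse and with the first run alone (−0.48, 0.0788). Bag1 and Hspb1 also lost it without the Aco1-/- mice (−0.21, 0.215, and −0.12, 0.604). Hsp90ab1, the constitutive HSP90, rose in TE (0.30, 0.00180), a call lost with RPF and RNA not paired by mouse (0.424). Hsf1 itself was at 0.07 in RNA (0.786), 0.03 in RPF (0.915) and −0.05 in TE (0.986).

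Among 15 mitochondrial chaperones and proteases, 3 rose and 2 fell in RNA, 2 rose and 2 fell in RPF and none passed in TE, counts near the shares of all genes that passed (22.3% in RNA and 31.8% in RPF). Clpx, the unfoldase of the matrix protease ClpXP, fell in RNA (−1.59, 1.14e-08) and RPF (−1.58, 4.34e-10), and its partner Clpp fell in RPF (−0.23, 0.0135). Hscb, a co-chaperone of iron-sulphur cluster assembly, fell in RNA (−0.95, 0.0142). Hspa9, the mitochondrial HSP70, rose by 0.20 in RNA and RPF, Afg3l2, a subunit of an inner membrane protease, by 0.21 in both, and Dnaja3, a mitochondrial HSP40, by 0.25 in RNA. The RNA calls of Afg3l2 and Dnaja3 were lost in 4 and 3 of 24 omissions of a mouse. That of Afg3l2 was also lost with the first run alone (0.16, 0.206), all columns summed (0.07, 0.335) and the 3′ UTR column (0.17, 0.349), and that of Dnaja3 with the 3′ UTR column (0.17, 0.0908) and without the Aco1-/- mice (0.25, 0.0598). With the 3′ UTR column the Hspa9 RNA value was 0.19 (0.101). Clpp RPF lost its call with the first run alone (−0.18, 0.0877) and without the Aco1-/- mice (−0.15, 0.165). The medians were 0.01, −0.02 and −0.05.

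The genes whose RNA most resembled that of Hspa8 over the 24 livers, by Pearson's r of log2 CPM among 6506 genes with a mean of at least 10 CPM, were Bzw1 (0.918), Crybg3 (0.900), Hsph1 (0.890), Dpy19l1 (0.877) and Zfp106 (0.874). For Cirbp they included Klhl5 (0.888), Anp32a (0.876), Hmgcs1 (0.838) and Pnp (0.834). These r contain the time difference that all livers share. Once each liver was taken relative to the mean of its group, Hspa8 and Hsph1 RNA had a Pearson's r of 0.54 (permutation p = 0.0458, adjusted 0.122 over 8 relations) and a Spearman's rho of 0.60 (0.0178, adjusted 0.0896), with r at 0.66 without the 2 farthest livers and at 0.51 and 0.63 within the Aco1 and Ireb2 lines. No relation among the 8 passed after adjustment.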

How the data were processed

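Livers of 24 mice gave 48 libraries, 1 of RPF and 1 of total RNA for each mouse. Per the study's methods, the authors trimmed reads with cutadapt 3.5, removed ribosomal RNA reads with bowtie2 and aligned with STAR to the mouse genome; the counting tool, its strand setting and its handling of reads with several matches are not given in the sources used here. The deposited values are raw counts per gene, in unnamed columns whose values pointed to 5′ UTR, CDS and 3′ UTR, beside 1 column at 0 and 1 unidentified. The CDS column was used, and the 2 runs of 29 libraries were summed. Counts were scaled by the upper quartile over all 48 libraries, filtered with filterByExpr (minimum count 10, total 15; 10696 of 25266 genes) and tested with edgeR 4.0.16 in R 4.3.3 (robust quasi-likelihood test, Benjamini-Hochberg adjustment over all genes tested, threshold 0.05). Comparisons within a line were fitted in its 12 mice, and those over the 4 genotypes or of the time effect by genotype in all 24. TE was tested in 1 model of both libraries, with a term for each mouse. Intervals are unadjusted 95% intervals, from the standard error and the t quantile at the degrees of freedom of the test. CDS counts per library ranged from 852293 to 3993492 in RNA and from 2448915 to 13439600 in RPF, so genes with few counts, such as Hspa1a and Rbm3 in RNA, have little precision. The scripts were tested on simulated counts.

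Named were all 10 members, Hsf1, from each gene list up to 3 genes higher and 3 lower at ZT12 with the smallest adjusted p past the threshold over the 4 genotypes, and the 5 genes most like Hspa8 and Cirbp in RNA, of which 1 is not reported here. Members and lists were chosen with earlier results of these data known. Alternatives were DESeq2 1.42.0, other scaling (TMM), no filter, all columns summed, the first run alone, all 24 mice in one fit, RPF and RNA not paired by mouse, the replicate block and leaving out each mouse. The 3′ UTR column, Hspa1a and Hspa1b summed, and omission of the Aco1-/- mice were added after seeing the data. Same-numbered mice mostly did not deviate together: the correlation of deviations was over 0.1 in 2 of 36 RNA and 6 of 36 RPF pairs. It ranged from −0.179 to 0.128 in RNA and from −0.403 to 0.258 in RPF. Between knockout and control mice of a line and time, it reached 0.258 in RPF, in the Aco1 line at ZT5. At ZT12 it was 0.02, −0.02 and −0.09 in RPF in the Aco1 line, and 0.13, 0.13 and 0.10 in the Ireb2 line.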

Additional observations from a re-analysis of the deposited data

Results flagged for a closer look

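The time effect of Hspe1 in RPF differed among the 4 genotypes (edgeR's quasi-likelihood F test, adjusted p = 0.0183). The effect was −1.79 in Aco1-/- livers and −0.36, 0.11 and 0.16 in Aco1+/+, Ireb2+/+ and Ireb2-/- livers (log2, ZT12 minus ZT5). Over 24 omissions of 1 mouse the adjusted p ranged from 6.13e-05 to 0.0739, and the call held in 21. This test spans both lines. Within the Aco1 line alone, genotype by time gave −1.43 and did not pass (adjusted p = 0.837).

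Hspa8 RNA had reads in the unidentified count column, which no comparison above uses as its main measure. Their median was 705 CPM over 12 livers at ZT5 and 474 CPM over 12 livers at ZT12, above those of its CDS column (46.9 and 102 CPM).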

How the results depend on the processing

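Directions and calls of the members in RPF over the 4 genotypes changed with few settings, RNA counts and TE with more, and TMM moved no count by over 1.5 times; causes were not tested unless the setting shows one. With DESeq2, the members called were 5 in RNA over the 4 genotypes, 2 in Aco1+/+ RPF and 2 in the Aco1 knockout at ZT12 in RPF. With all columns summed, they were 5 in RNA and 1 in TE over the 4 genotypes, 2 in Aco1+/+ RPF, 3 in Aco1-/- TE, 0 in RPF and 1 in TE for the Aco1 knockout at ZT12 and 1 in TE for the time effect by genotype, with 13 genes of the extramitochondrial network in RNA; Hspa8 RNA turned to −0.23 over the 4 genotypes, −0.15 in Aco1+/+, −0.42 in Aco1-/-, −0.17 in Ireb2+/+ and −0.20 in Ireb2-/-. With all 24 mice in one fit, they were 1 in Ireb2+/+ RNA, 1 in Ireb2+/+ RPF, 2 in Ireb2-/- RPF, 2 in Aco1+/+ RPF and 2 in the Aco1 knockout at ZT12 in RPF. With the first run alone, they were 0 in Aco1-/- TE, 2 in Aco1+/+ RNA and 2 in the Aco1 knockout at ZT12 in RPF, with 3 mitochondrial genes in RNA; over the 4 genotypes, Hsf1 RPF was −0.027, Hspa1b TE −0.16, Hspe1 RNA 0.0094 and Hsp90aa1 TE 0.067. With RPF and RNA not paired by mouse, 0 members were called in Aco1-/- TE and 0 genes of that network in TE. With no filter, 1 member was called in TE for the Aco1 knockout at ZT12.

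Replicate numbers were not shown to pair the mice. With the replicate block, 0 members were called in RPF (Hspe1 −1.59, adjusted p = 0.107) and 1 in TE for the Aco1 knockout at ZT12, and 1 in TE for the time effect by genotype; Hspa1b RNA over the 4 genotypes was 1.58 (0.00141). Among the settings chosen after seeing the data, the 3′ UTR column gave −0.070 for Hsf1 RNA and 0.24 for Hspe1 RNA, and without the Aco1-/- mice Hsp90aa1 RPF was −0.022 and Hspa8 TE −0.079.

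Leaving out each mouse in turn, the members called over the 4 genotypes numbered 3 to 5 in RNA, 0 to 1 in TE and 8 in RPF throughout. They numbered 1 to 3 in RNA and 1 to 3 in RPF in Aco1+/+; 1 to 3, 3 to 6 and, in TE, 0 to 1 in Aco1-/-; 1 to 3 and 1 to 5 in Ireb2+/+; and 3 to 4 and 2 to 5 in Ireb2-/-. For the Aco1 knockout at ZT12 they numbered 0 to 2 in RPF and 0 to 2 in TE, for genotype by time in the Aco1 line 0 to 1 in RPF and 0 to 1 in TE, and for the time effect by genotype 0 to 1 in RPF and 0 to 1 in TE. List counts ran from 6 to 10, 13 to 16 and 1 to 2 in RNA, RPF and TE for the extramitochondrial network, and from 3 to 5 and 4 to 6 in RNA and RPF for the mitochondrial list. Values that changed sign ranged from −0.075 to 0.28 (Hspa1b TE), −0.020 to 0.11 (Dnajb1 TE), −0.11 to 0.0067 (Hspe1 RNA), −0.0061 to 0.31 (Rbm3 RNA), −0.021 to 0.10 (Hsf1 RPF) and −0.15 to 0.017 (Hsf1 TE). Counts limit Hspa1a, Hspa1b and Rbm3 in RNA most.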
